A study of Homo sapiens with 4 samples.

Results

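The human mitochondrial chromosome carries 37 genes, and all 37 were listed in the deposited expression table among 58884 genes. They were taken by symbol, as the genes whose name begins with MT-, and comprised 13 protein-coding genes (mRNAs), 2 ribosomal RNA (rRNA) genes and 22 transfer RNA (tRNA) genes. Total RNA was sequenced from a follicular thyroid carcinoma line, FTC-133, and an anaplastic one, 8505C, both human. Cells had been transfected with an empty vector or with one that overexpresses CRABP1, a cytoplasmic carrier of retinoic acid, so the 4 groups were FTC-133 vector, FTC-133 CRABP1, 8505C vector and 8505C CRABP1. Each group held 1 library, and the labels do not say whether the libraries came from separate cultures, whether the transfection was stable or 1 clone was used, or how ribosomal RNA was handled.

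Mitochondrial genes are transcribed from both strands of a small circular genome as long precursors, in which tRNAs lie between most of the rRNAs and mRNAs. Nucleases cut the tRNAs out and thereby release the other RNAs, whose levels then depend on how stable each one is. The mRNAs encode core subunits of respiratory chain complexes I, III and IV and of the ATP synthase (complex V). The remaining subunits, the mitochondrial ribosomal proteins and the enzymes that make and process mitochondrial RNA are encoded in the nucleus.

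Where 2 values are given for a pair of libraries, vector comes first and CRABP1 second. Values are TPM (a read number divided by gene length and brought to a common sum over genes). TPM times gene length was divided by a step that stands for 1 read. That step was estimated in each library from the most common small products, at 184 to 197. All 37 mitochondrial genes then fell within 0.02 of whole reads in each library. The libraries held 19174557 to 20331464 such estimated reads, of which 1290084 to 1516207 were mitochondrial. These reads gave the 95% Clopper-Pearson intervals of ratios printed below, which cover counting error only. CRABP1 itself was at 0 TPM in both vector libraries, at 385 TPM in FTC-133 CRABP1 and at 537 TPM in 8505C CRABP1. The thyroid transcription factor gene PAX8 was at 100 and 143 TPM in FTC-133 but at 0.240 and 0.161 in 8505C. FOXE1, another one, was at 8.06 and 15.2 TPM against 0.0568 and 0.0570. NKX2-1 and HHEX went the other way, with 44.7 and 17.7 TPM against 118 and 113, and 8.45 and 9.32 against 22.4 and 27.8. The thyroid differentiation genes TG and TSHR were at no more than 0.956 TPM in any library. Markers of leukocytes (PTPRC, at most 0.194 TPM), endothelium (PECAM1, at most 3.68) and fibroblasts (DCN, at most 2.45) were low.

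Parts of the mitochondrial genome have nearly identical copies in the nucleus, and these sequences matter for reading the values of MT-ND2 and MT-ATP6. A block on chromosome 1 (GRCh38, chr1:629062-634922) holds 7 annotated copies of MT-ND1, MT-ND2, MT-CO1, MT-CO2, MT-ATP8, MT-ATP6 and MT-CO3, which are 97.6% to 99.1% identical to the mitochondrial genes over their aligned length. Between MT-ND2 and its copy MTND2P28 (ENSG00000225630, chr1:629640-630683, plus strand), 17 of 1042 aligned bases differed, and the longest identical run was 266 bases. Between MT-ATP6 and MTATP6P1 (chr1:633696-634376, plus strand), 10 of 681 bases differed. A window of 60 bases is shown from each pair, from the GENCODE 29 transcripts, with the differing bases in capitals. The MT-ND2 window is chrM:4899-4958 and its counterpart is chr1:630069-630128; the MT-ATP6 window is chrM:8642-8701 and its counterpart is chr1:633811-633870.
MT-ND2: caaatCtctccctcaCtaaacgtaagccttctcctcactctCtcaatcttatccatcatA
MTND2P28: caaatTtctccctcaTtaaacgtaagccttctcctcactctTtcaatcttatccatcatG
MT-ATP6: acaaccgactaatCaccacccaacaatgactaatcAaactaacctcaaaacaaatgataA
MTATP6P1: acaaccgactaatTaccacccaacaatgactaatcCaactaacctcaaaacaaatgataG
Each window was picked as the 60 bases with the most differences in its pair, at 4 and 3 bases, so the rest of the genes differs less densely. A read lying between differing bases carries nothing that tells the gene from its copy.

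The mitochondrial genes held 28.6% of all TPM in FTC-133 vector, 25.9% in FTC-133 CRABP1, 26.4% in 8505C vector and 25.9% in 8505C CRABP1. The FTC-133 vector library was the highest, and the other 3 lay close together. The 13 mRNAs accounted for 23.6%, 21.1%, 21.3% and 21.5% in the same order, the 2 rRNAs for 3.32%, 3.26%, 3.66% and 3.19%, and the 22 tRNAs for 1.67%, 1.55%, 1.43% and 1.25%. Counted as reads instead of TPM, the mitochondrial share was 7.46%, 6.62%, 6.86% and 6.68%, since most of these genes are short. All 13 mRNAs were among the 50 genes with the highest TPM in every library, and 9 or 10 of the top 10 genes were mitochondrial. In these bulk libraries, fewer cells rich in mitochondrial RNA and less of it per cell cannot be told apart.

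The 13 mRNAs and 2 rRNAs ranged from 4711 to 35855 TPM, although most of them come from shared precursors. MT-CO1 (ENSG00000198804, chrM:5904-7445), the catalytic subunit of cytochrome c oxidase, was the highest, with 35855, 32688, 33045 and 34054 TPM in FTC-133 vector, FTC-133 CRABP1, 8505C vector and 8505C CRABP1, and its 4 values lay above all those of MT-CO3, the next gene in order. The highest value of MT-ND4, 33099 TPM in FTC-133 vector, overlapped those of MT-CO1. MT-CO3, MT-RNR2, MT-ND4, MT-CO2 and MT-ATP6 followed, with means over the 4 libraries of 27996, 27777, 27758, 26789 and 24372 TPM, and each overlapped its neighbour in order. MT-CYB and MT-ND4L, at means of 14518 and 14196 TPM, overlapped each other and lay below MT-ATP6 and above MT-ND1 in every library. MT-ND1, MT-ND6, MT-ND5, MT-ND2, MT-ND3, MT-RNR1 and MT-ATP8 completed the order, from a mean of 11449 down to 5415 TPM, and each overlapped the next.

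**Figure D1:**
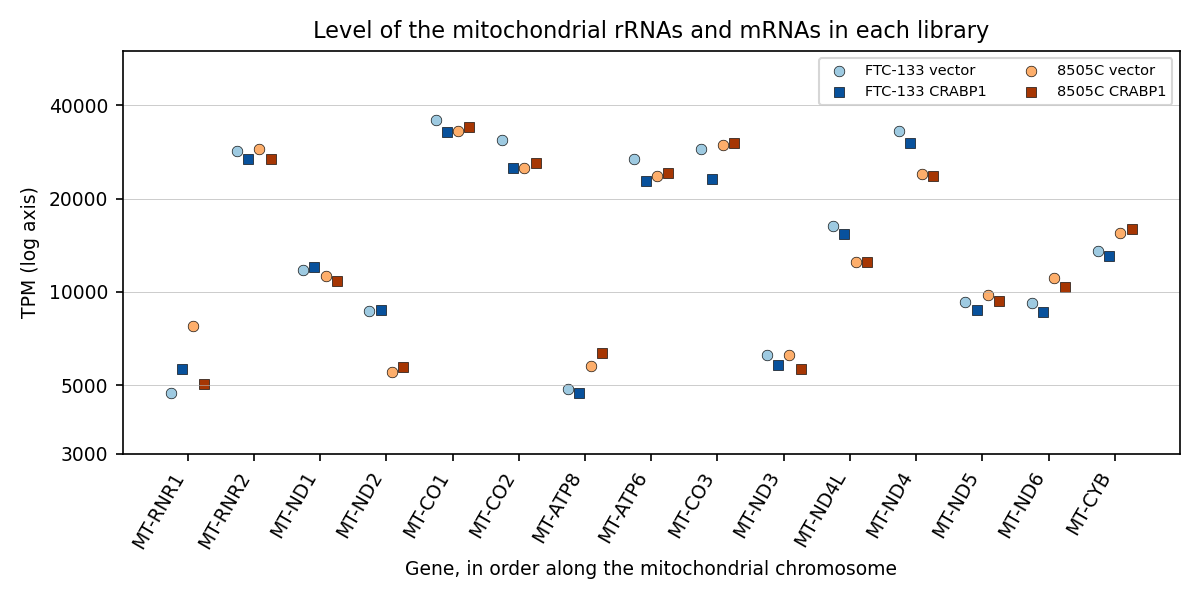
TPM (log axis) of the 2 rRNA and 13 mRNA genes in chromosome order, 1 point per library. MT-CO1 was highest in each library, and MT-RNR1 is highest in the 8505C vector library. Of the 13 mRNAs, 5 lie higher and 4 lower in 8505C without overlap, beside 28.6% and 44.9% of all genes tested. MT-ND2 and MT-ND4 are among the lower ones, and reads listed under MTND2P28 are not in the MT-ND2 values.

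In FTC-133, the mRNAs of MT-CO1, MT-CO2, MT-CO3 and MT-ATP6 were lower with CRABP1 than with vector, with ratios of 0.803 to 0.912. In 8505C the ratios of these 4 were 1.01 to 1.04, and that of MT-CO3 turned to below 1 with median-ratio scaling. Complex IV, cytochrome c oxidase, has 3 mitochondrial subunits that form its catalytic core. MT-CO2 (ENSG00000198712, chrM:7586-8269), which accepts electrons from cytochrome c, had 30982 TPM in FTC-133 vector against 25139 in FTC-133 CRABP1, and 25059 and 25973 in 8505C vector and CRABP1. The FTC-133 vector library stood alone at the top and the other 3 lay close together. The ratio of CRABP1 to vector was 0.811 (0.804 to 0.819) in FTC-133 and 1.04 (1.03 to 1.05) in 8505C.

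MT-CO3 (ENSG00000198938, chrM:9207-9990), the third core subunit, had 28854 and 23166 TPM in the FTC-133 pair and 29821 and 30142 in the 8505C pair. Here the FTC-133 CRABP1 library was the low one. The ratio was 0.803 (0.796 to 0.810) in FTC-133 and 1.01 (1.003 to 1.02) in 8505C. The ratio of MT-CO1 was nearer to 1 in FTC-133, at 0.912 (0.907 to 0.916), and was 1.03 (1.02 to 1.04) in 8505C. Summed over the 3 genes, complex IV TPM changed by -15.4% in FTC-133 and by 2.55% in 8505C.

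MT-ATP6 (ENSG00000198899, chrM:8527-9207), the proton channel subunit of ATP synthase, had 26921 and 22757 TPM in the FTC-133 pair and 23631 and 24177 in the 8505C pair, again with the FTC-133 vector library highest. The ratio was 0.845 (0.838 to 0.853) in FTC-133 and 1.02 (1.01 to 1.03) in 8505C. MT-ATP8 (chrM:8366-8572), the small partner subunit encoded on the same mRNA, had 4844 and 4711 TPM in the FTC-133 pair and 5761 and 6345 in the 8505C pair. Its ratio of 0.973 in FTC-133 had an interval that held 1 (0.936 to 1.01), and its ratio in 8505C was 1.10 (1.06 to 1.14). The levels of both genes in the FTC-133 libraries thus differed in unequal proportion, although 1 transcript carries both.

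That shared transcript has overlapping reading frames, and the 46 bases common to both genes (chrM:8527-8572, plus strand) are shown because reads there belong to both. The capitals mark the start codon of MT-ATP6 and the stop codon of MT-ATP8.
MT-ATP8 and MT-ATP6: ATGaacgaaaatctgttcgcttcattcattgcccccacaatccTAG
The ratio of MT-ATP6 to MT-ATP8 in TPM was 5.56 and 4.83 in the FTC-133 pair and 4.10 and 3.81 in the 8505C pair, so MT-ATP8 was the lower of the pair throughout. How reads over the shared bases were assigned to the genes is not stated. Reads listed under MTATP6P1, 13.1% to 18.1% of those of MT-ATP6 and its copy, are not in these ratios. The other shared transcript, MT-ND4L with MT-ND4, overlaps over the 7 bases ATGCTAA (chrM:10760-10766), and its ratio of MT-ND4 to MT-ND4L varied less, at 2.02, 1.97, 1.91 and 1.89.

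Complex I, NADH dehydrogenase, takes 7 membrane subunits from the mitochondrial genome, and their CRABP1 to vector ratios were 0.916 to 1.02 in FTC-133 and 0.900 to 1.04 in 8505C. MT-ND4 (chrM:10760-12137), a proton-pumping subunit, had 33099 and 30318 TPM in the FTC-133 pair and 23981 and 23633 in the 8505C pair, and MT-ND4L 16369, 15357, 12528 and 12529 in the same order. Their ratios were 0.916 (0.911 to 0.921) and 0.938 (0.922 to 0.955) in FTC-133, and 0.985 (0.979 to 0.992) and 1 to 2 decimals (0.980 to 1.02) in 8505C. Both genes were higher in both FTC-133 libraries than in either 8505C library, and that gap exceeded the one between transfections.

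MT-ND1 (chrM:3307-4262), at the quinone-binding end of the complex, had 11757, 11989, 11212 and 10838 TPM, and MT-ND2 (ENSG00000198763, chrM:4470-5511) had 8681, 8751, 5517 and 5720 TPM. These were the only mRNAs with a ratio above 1 in FTC-133, at 1.02 (1.01 to 1.03) and 1.01 (0.996 to 1.02). MT-ND3 (6259, 5795, 6276 and 5649 TPM), MT-ND5 (9308, 8735, 9743 and 9355 TPM) and MT-ND6 (9194, 8593, 11124 and 10336 TPM) were lower with CRABP1 in both lines. In FTC-133 their ratios were 0.926, 0.938 and 0.935, in 8505C 0.900, 0.960 and 0.929, and each had an interval below 1. Whether reads were counted by strand is not stated, so reads from the strand opposite MT-ND6 cannot be told apart from its own. Complex I TPM as a sum changed by -5.42% in FTC-133 and -2.89% in 8505C.

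MT-CYB (chrM:14747-15887), the cytochrome b of complex III and the only subunit of that complex from this genome, had 13563 and 13086 TPM in the FTC-133 pair and 15469 and 15952 in the 8505C pair. Its ratio was 0.965 (0.956 to 0.974) in FTC-133 and 1.03 (1.02 to 1.04) in 8505C.

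Over the 13 mRNAs, 11 were lower and 2 higher with CRABP1 in FTC-133, and 10 of the lower ones had a counting interval below 1. Each mRNA had at least 5146 estimated reads in each FTC-133 library, so the intervals are narrow and small differences lie off 1. How many of all genes meet this interval rule was not counted. The median log2 ratio of the 13 mRNAs was -0.10, beside 0.06 over the 19899 genes compared in FTC-133, and 42.2% of those were lower. In 8505C, 8 were higher and 5 lower with a median of 0.02, the same to 2 decimals as over the 17561 genes compared there. Scaling each library to its nuclear genes or by median ratios made all 13 lower in FTC-133 and moved the median to -0.15 and -0.16, and in 8505C it left 7 and 6 of 13 higher. MT-CO3 in 8505C was at 0.02 on the log2 scale as deposited and at -0.01 with median-ratio scaling, so its direction there depends on the scaling. No mRNA was past 2-fold in either line, where 10.9% of all genes compared in FTC-133 and 7.77% in 8505C were. Among genes averaging 5 TPM or more, 591 of 12585 in FTC-133 and 218 of 11434 in 8505C were. Beside those shares, none of 13 does not set the mRNAs apart.

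**Figure D2:**
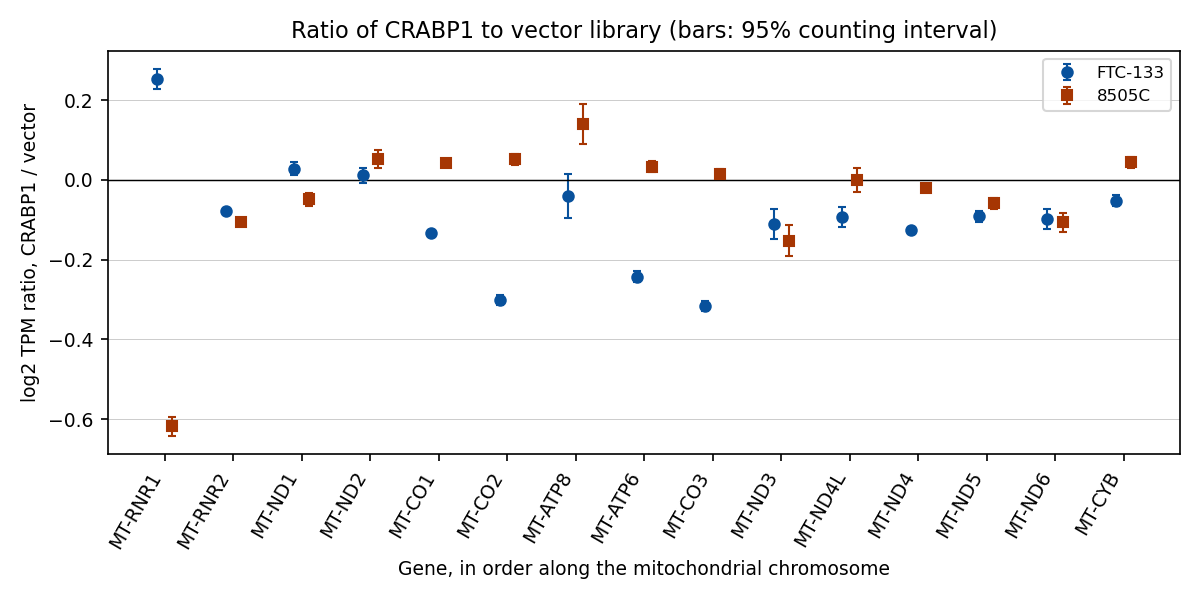
log2 of the CRABP1 to vector TPM ratio for the rRNA and mRNA genes in chromosome order in each line, with 95% counting intervals. In FTC-133, MT-CO2, MT-ATP6 and MT-CO3 lie lowest (ratios of 0.811, 0.845 and 0.803), while MT-RNR1 lies above 0 in FTC-133 and far below it in 8505C.

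With limma over all 4 libraries, in which the lines act as the replicates and 1 residual degree of freedom is left, none of the 37 genes passed an adjusted p of 0.05 for CRABP1 against vector, and 7, all tRNAs, had an unadjusted p under 0.05. Among all 19513 genes tested, 1 passed (0.00512%), which was CRABP1, and 923 had an unadjusted p under 0.05. The smallest adjusted p of a mitochondrial gene for CRABP1 in limma was 0.920. In these p-values the spread of a gene comes from its 4 libraries, moderated by limma with a mean-variance trend over all genes tested. No repeat library of a group enters it. Any difference between the lines in their ratios was not tested, since an interaction term leaves no residual degrees of freedom.

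The 2 rRNAs, which build the small and large subunits of the mitochondrial ribosome, differed in their ratios. MT-RNR2 (chrM:1671-3229), the large-subunit rRNA, had 28421, 26930, 28892 and 26863 TPM, with ratios of 0.948 (0.942 to 0.953) in FTC-133 and 0.930 (0.924 to 0.935) in 8505C. MT-RNR1 (ENSG00000211459, chrM:648-1601), the small-subunit rRNA, had 4733 and 5641 TPM in the FTC-133 pair and 7747 and 5049 in the 8505C pair. The 8505C vector library was the highest of the 4 and the FTC-133 vector library the lowest.

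The ratio of MT-RNR1 was 1.19 (1.17 to 1.21) in FTC-133 and 0.652 (0.641 to 0.662) in 8505C, the farthest from 1 among the 15 mRNAs and rRNAs in 8505C. The ratio of MT-RNR2 to MT-RNR1 was 6.01 in FTC-133 vector, 4.77 in FTC-133 CRABP1, 3.73 in 8505C vector and 5.32 in 8505C CRABP1, although both lie next to each other on 1 precursor with only a tRNA between them. The selection of RNA for the libraries was not stated, and its part in these values was not tested.

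The tRNAs rested on few reads. Together they held 4359 to 6232 estimated reads per library, or 0.0226% to 0.0307% of reads, and their short length turned these into more than 1% of TPM. The labels do not say which fragment lengths the library preparation kept. Mature tRNAs, tRNAs within precursors and reads of an overlapping neighbour cannot be told apart in these values.

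MT-TC (cysteine), MT-TN (asparagine) and MT-TP (proline) made up 83.1% to 85.7% of tRNA TPM. MT-TC had 7921, 7296, 6055 and 5739 TPM, MT-TN 3676, 3572, 3355 and 3152, and MT-TP 2528, 2163, 2460 and 1859. MT-TY (tyrosine, 338 to 785 TPM) and MT-TL1 (leucine, 349 to 850 TPM) came next. The other 17 tRNAs held only 330 to 558 reads together in a library, and MT-TF, MT-TA and MT-TW were the lowest by mean level, with 1 to 11 reads each in any library. The 5 most abundant are printed here 5′ to 3′ from the GENCODE 29 transcripts with the anticodon in capitals, since they carry nearly all tRNA reads.
MT-TC: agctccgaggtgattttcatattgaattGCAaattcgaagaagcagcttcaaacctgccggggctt
MT-TN: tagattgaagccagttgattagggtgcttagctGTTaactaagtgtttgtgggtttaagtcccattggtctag
MT-TP: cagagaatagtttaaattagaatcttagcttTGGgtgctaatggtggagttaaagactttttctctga
MT-TY: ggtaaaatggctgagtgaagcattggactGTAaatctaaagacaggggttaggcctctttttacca
MT-TL1: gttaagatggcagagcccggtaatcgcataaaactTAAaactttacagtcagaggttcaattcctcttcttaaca
MT-TC (chrM:5761-5826), MT-TN (chrM:5657-5729), MT-TY (chrM:5826-5891) and MT-TP (chrM:15956-16023) are annotated on the minus strand, and MT-TL1 (chrM:3230-3304) on the plus strand. The 8 minus-strand tRNAs held 87.9% to 90.1% of tRNA TPM, against 9.91% to 12.1% for the 14 on the plus strand. MT-TA (alanine) lies beside MT-TN on the same strand, yet had 2, 2, 11 and 9 reads where MT-TN had 1461, 1376, 1246 and 1167.

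**Figure D3:**
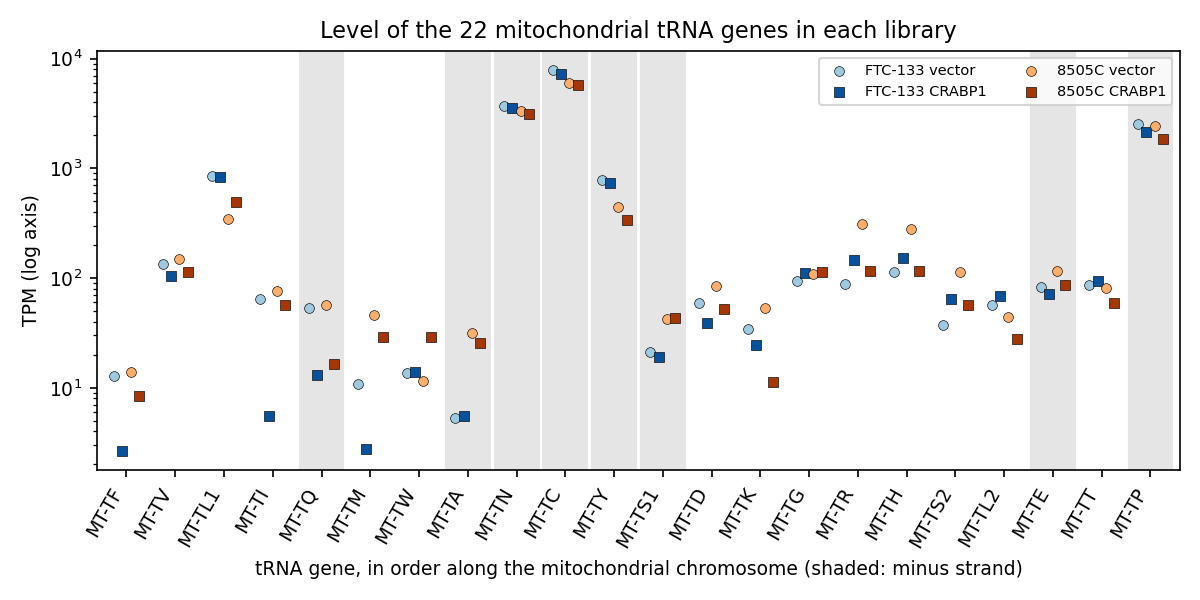
TPM (log axis) of the 22 tRNA genes in chromosome order, 1 point per library, with minus-strand genes shaded. MT-TC, MT-TN and MT-TP stand above the rest, and MT-TR, MT-TH and MT-TS2 are highest in the 8505C vector library.

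All members past 2-fold between vector and CRABP1 were tRNAs. In FTC-133, 4 were lower (4.92% of all genes compared were 2-fold lower) and none higher (6.02% of all genes). They were MT-TI, MT-TQ, MT-TF and MT-TM, of which MT-TF went from 5 reads to 1 and MT-TM from 4 to 1, with counting intervals that held 1. MT-TI (isoleucine) had 24 reads in FTC-133 vector and 2 in FTC-133 CRABP1, a ratio of 0.0860 (0.00985 to 0.346), but 27 and 20 in 8505C. The FTC-133 CRABP1 library was thus the only low one for MT-TI.

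In 8505C, MT-TQ, MT-TK, MT-TR and MT-TH were 2-fold lower (4.07% of all genes compared) and MT-TW 2-fold higher (3.7% of all genes), the last with 4 and 10 reads. MT-TQ (glutamine) was the 1 member past 2-fold in both lines, with 21 and 5 reads in the FTC-133 pair and 21 and 6 in the 8505C pair. Its ratios were 0.246 (0.0724 to 0.669) and 0.287 (0.0946 to 0.734). Its mean log2 difference in limma was -1.84 with a standard error of 0.12 and a p of 0.000193, which became 0.920 after Benjamini-Hochberg adjustment over all genes.

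MT-TR (arginine), MT-TH (histidine) and MT-TS2 (serine), which flank MT-ND4L and MT-ND4 on the plus strand, had their highest value in the 8505C vector library. MT-TR had 31, 50, 104 and 38 reads, MT-TH 43, 55, 99 and 41, and MT-TS2 12, 20, 34 and 17, in the order FTC-133 vector, FTC-133 CRABP1, 8505C vector and 8505C CRABP1. The ratio of CRABP1 to vector for MT-TR was 1.66 (1.04 to 2.70) in FTC-133 and 0.367 (0.246 to 0.536) in 8505C. For MT-TH it was 1.32 (0.869 to 2.01) and 0.415 (0.281 to 0.604), and for MT-TS2 1.72 (0.801 to 3.86) and 0.502 (0.263 to 0.923). The mRNAs between them did not follow, since MT-ND4L and MT-ND4 had ratios of 1 (to 2 decimals) and 0.985 in 8505C. MT-RNR1 was also highest in the 8505C vector library, and the 17 scarcer tRNAs summed to 1627 TPM there against 939 to 970 in the other 3. That sum includes MT-TR, MT-TH and MT-TS2, so it is not separate from their values. The 8505C vector library stands apart for MT-TR, MT-TH, MT-TS2 and MT-RNR1, so each of these 8505C ratios rests on it.

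Among the other tRNAs with at least 20 reads over a pair, MT-TD (aspartate) had a ratio of 0.657 in FTC-133 with an interval of 0.311 to 1.34. In 8505C, MT-TK (lysine) had 0.211 (0.0522 to 0.635) from 19 and 4 reads. MT-TL1 was the only tRNA with an interval above 1 in 8505C, at 1.41 (1.12 to 1.78), while MT-TG (glycine) and MT-TS1 (serine) had 1.03 and 1.003 with intervals that held 1. MT-TP was lower with CRABP1 in both lines, at 0.855 (0.777 to 0.942) and 0.756 (0.681 to 0.838). Over the 22 tRNAs, 14 were lower and 8 higher in FTC-133 with a median log2 ratio of -0.10, and 18 lower and 4 higher in 8505C with a median of -0.42. Of all genes compared, 42.2% were lower in FTC-133 and 45.3% in 8505C. Most intervals of the tRNAs held 1, namely 17 of 22 in FTC-133 and 14 of 22 in 8505C.

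Between the lines, with both transfections in 1 fit, none of the 13 mRNAs passed limma's threshold of an adjusted p of 0.05. The vector and CRABP1 libraries of a line stood in for its replicates, so variation between libraries of the same group was not measured. Of all 37 mitochondrial genes 6 passed, beside 35.2% of all genes tested, and all 6 were tRNAs. MT-TA was higher in 8505C by 2.20 on the log2 scale (standard error 0.16, adjusted p 0.00665 in limma), MT-TM by 2.49, MT-TS1 by 1.04 and MT-TD by 0.45. MT-TY and MT-TL1 had log2 differences of -0.98 and -1.02 (limma adjusted p of 0.0149 and 0.0241), with 785 and 744 TPM for MT-TY in FTC-133 against 441 and 338 in 8505C. MT-TA, MT-TM and MT-TS1 had at most 16 reads in any library, and limma's standard errors are not derived from read numbers. Counting intervals of the 8505C to FTC-133 ratio held 1 for MT-TS1 (0.799 to 5.46 with vector, 0.856 to 6.46 with CRABP1). They also held 1 for MT-TD (0.783 to 2.58 and 0.629 to 2.91). For MT-TA the interval was 1.28 to 54.7 with vector and 0.969 to 44.5 with CRABP1. Those of MT-TM, MT-TY and MT-TL1 lay off 1 with either transfection. By size alone, MT-TI, MT-TM, MT-TA and MT-TS1 were 2-fold higher (10.3% of all genes tested) and MT-TL1 was 2-fold lower (20.8%). With no filter on level, MT-TA alone remained past the threshold, and without a mean-variance trend MT-TA, MT-TM and MT-TS1 did. Without a term for transfection, MT-TD no longer passed (limma adjusted p 0.319).

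Levels of 9 of the 13 mRNAs did not overlap between the lines, 5 higher and 4 lower in 8505C, where 28.6% and 44.9% of all genes tested did the same (73.4% in either direction). The higher ones were MT-ATP8, MT-CO3, MT-ND5, MT-ND6 and MT-CYB, and the lower ones MT-ND1, MT-ND2, MT-ND4L and MT-ND4. MT-ND6 (chrM:14149-14673), the only mRNA gene on the minus strand, had a ratio of 8505C to FTC-133 of 1.21 in the vector libraries and 1.20 in the CRABP1 libraries, and MT-CYB had 1.14 and 1.22. MT-ND4 had 0.725 and 0.780, and MT-ND2 had 0.636 and 0.654. The MT-ND6 values may hold reads from the opposite strand, since strandedness is not stated. The median log2 difference of the 13 mRNAs was -0.03, beside -0.19 over all 19513 genes. Median-ratio scaling moved the median of all genes to -0.03 and that of the mRNAs to 0.14. MT-CO1, MT-CO2, MT-ATP6, MT-ND1 and MT-ND3 were then above 0 where they had been below it, so their direction between the lines depends on the scaling. Relative to all genes, the mRNA median was 0.16 higher as deposited and 0.17 higher with median-ratio scaling.

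MT-ND2 had the mRNA difference farthest from 0 between the lines, and its chromosome 1 copy had the opposite one. In limma, MT-ND2 had a log2 difference of -0.63 (standard error 0.16) with an adjusted p of 0.0562, and it passed at 0.0197 where the test was limited to genes averaging 5 TPM or more and at 0.0206 without a term for transfection. MTND2P28, the copy whose window is shown above, had 28.2 and 31.6 TPM in the FTC-133 pair and 2668 and 2746 TPM in the 8505C pair. In reads, these were 160 and 174 against 14171 and 14538, a ratio of 8505C to FTC-133 of 94.8 (81.1 to 111) with vector and 86.9 (74.9 to 102) with CRABP1. Its log2 difference in limma was 6.46 (standard error 0.10, adjusted p 0.00336), and its p ranked 2 of 19513 genes.

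In 8505C, 32.6% and 32.5% of the reads of the pair were listed under MTND2P28, against 0.324% and 0.360% in FTC-133. When the reads of gene and copy were added and divided by the length of MT-ND2, the 4 libraries had 8709, 8783, 8191 and 8471 TPM. The ratio of 8505C to FTC-133 for this sum was 0.940 (0.928 to 0.953) with vector and 0.965 (0.952 to 0.977) with CRABP1. On the log2 scale the sum differed by -0.09 and -0.05, MT-ND2 alone by -0.65 and -0.61. Whether the reads under MTND2P28 come from the mitochondrion or from chromosome 1 cannot be told apart in these values, and sequence variants were not examined.

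The copy of MT-ATP6, MTATP6P1, had 4072, 3452, 5233 and 5303 TPM, and held 13.1% and 13.2% of the reads of its pair in FTC-133 and 18.1% and 18.0% in 8505C. Added to its copy, MT-ATP6 kept a ratio of CRABP1 to vector of 0.846 (0.838 to 0.853) in FTC-133 and 1.02 (1.01 to 1.03) in 8505C. The copy alone had 0.848 (0.828 to 0.868) and 1.01 (0.993 to 1.03), close to MT-ATP6 itself in both lines. The other 5 copies were at most at 94.5 TPM, and adding them moved no ratio by more than its counting interval.

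**Figure D4:**
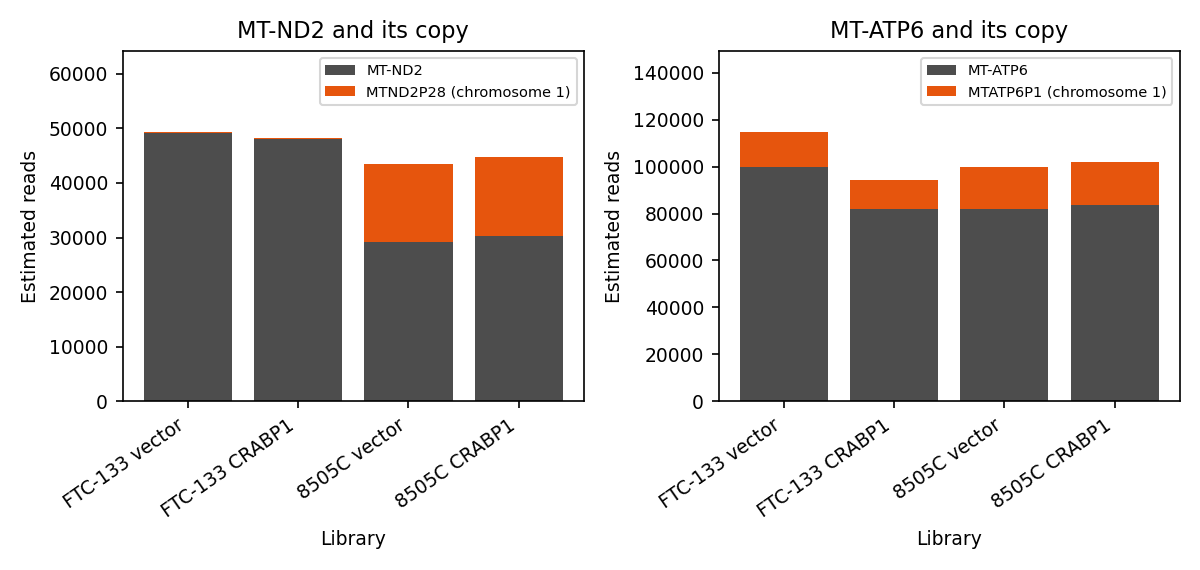
Estimated reads per library listed under MT-ND2 and MTND2P28 (left) and under MT-ATP6 and MTATP6P1 (right), stacked from 0. In 8505C, 32.6% and 32.5% of the MT-ND2 pair lie under the copy, against 0.324% and 0.360% in FTC-133.

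Of the nuclear genes that serve the mitochondrial genome, 9 lists were described beside the members, and none of their genes passed limma for CRABP1 against vector (3 had an unadjusted p under 0.05). Nuclear subunits and assembly factors of complex IV had a median log2 ratio of 0.07 over 33 genes in FTC-133, where the 3 mitochondrial mRNAs of that complex were between -0.32 and -0.13, and -0.06 over 32 genes in 8505C. Of the 33, 21 were higher and 12 (36.4%) lower in FTC-133. Over all genes compared there, the median was 0.06 and 42.2% were lower, near the values of this list. COX7A1, a muscle-type subunit, was the only list gene past 2-fold in either line, with 21.3, 7.44, 5.03 and 2.69 TPM. NDUFA4 (70.1, 78.0, 62.4 and 69.7 TPM) and COX4I1 (112, 129, 118 and 126 TPM) had the highest mean ratios of the list, and COX14, an assembly factor, had 35.6, 28.5, 34.7 and 28.5 TPM.

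Complex V had a median of -0.02 over 21 genes in FTC-133 and -0.03 in 8505C, and complex III 0.09 and 0.03 over 15. TMEM70, an assembly factor of ATP synthase, had 25.7 and 31.3 TPM in FTC-133, and ATP5ME 24.8 and 23.4. CYC1, the cytochrome c1 of complex III, had 122 and 147 TPM in the FTC-133 pair and 137 and 152 in the 8505C pair, and UQCR10 114, 112, 101 and 84.7 TPM. Mitochondrial ribosomal proteins had medians of 0.13 over 78 genes in FTC-133 and -0.01 over 77 genes in 8505C. In FTC-133, 55 were higher and 29.5% lower, beside 42.2% lower of all genes compared. MRPS6 was the lowest by ratio over both lines, with 25.1 and 19.1 TPM in the FTC-133 pair and 74.3 and 48.6 in the 8505C pair.

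The genes that transcribe and replicate mitochondrial DNA had medians of 0.06 in both lines over 26 genes. MTERF3, a repressor of mitochondrial transcription, had 33.0, 49.3, 51.3 and 58.6 TPM, and TEFM, the elongation factor, 16.8, 11.9, 14.4 and 15.1 TPM. RNA processing and stability factors had medians of 0.02 and -0.01 over 34 genes. GRSF1 (60.9, 45.7, 61.1 and 56.9 TPM), a granule protein that binds these RNAs, and TRMT10C (69.8, 56.5, 67.6 and 64.8 TPM), part of the enzyme that cuts tRNA 5′ ends, were its lowest by ratio. Medians for tRNA modification were 0.12 and 0.07 over 20 genes, and for translation factors 0.10 and 0.06 over 20.

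Among 17 regulators of mitochondrial biogenesis the median was 0.14 in FTC-133, and among 16 in 8505C it was -0.01. MYC had 43.0 and 77.7 TPM in the FTC-133 pair and 102 and 116 in the 8505C pair, and PRKAA1, a catalytic subunit of the energy sensor AMPK, 69.5, 82.2, 176 and 220 TPM. PRKAA2, the other catalytic subunit, had 29.7, 19.1, 18.2 and 16.7 TPM.

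Between the lines, many genes of these lists passed limma, as did 13% of all genes tested in the higher and 22.2% in the lower direction. Complex IV had 4 genes higher and 11 lower in 8505C of 33, mitochondrial ribosomal proteins 9 and 14 of 77, RNA processing 4 and 9 of 34, and transcription and replication 3 and 8 of 26. Complex III had 1 and 5 of 15, complex V 1 and 5 of 21, biogenesis regulators 5 and 3 of 17, and tRNA modification and translation factors 1 and 2 of 20 each. COX7B2, a testis-type subunit of complex IV, had 24.7 and 27.1 TPM in FTC-133 and was listed at 0 in both 8505C libraries. MGME1, a nuclease of mitochondrial DNA, was higher in 8505C by 1.12 on the log2 scale, and FASTK, which stabilises MT-ND6 mRNA, had a log2 difference of -1.49 with 50.3 and 51.1 TPM in the FTC-133 pair and 18.1 and 16.7 in the 8505C pair. HIF1A, the oxygen-response transcription factor, had 2731 and 2095 TPM in FTC-133 against 562 and 505 in 8505C, a log2 difference of -2.16 (limma adjusted p 0.00495).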

How the data were processed

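RNA-seq of 4 libraries was used. The authors deposited 1 table of TPM values for 58884 Ensembl genes, with the same sum in each library. Trimmomatic 0.38, featureCounts 2.0.0, FastQC and the GRCh38 build are named, per the submitters' processing notes. For the aligner, the annotation and strandedness the entry is "not given in the sources used here", so reads of overlapping genes on opposite strands cannot be told apart.

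Read numbers came from TPM times the GENCODE 29 union exon length (58611 identifiers), divided by the step for 1 read in each library. They were whole, within 0.02, for 90.5% to 91.6% of values of up to 50 reads. Log2 ratios use TPM plus 1 and genes averaging 1 TPM or more where compared. Ratios printed beside counting intervals have no pseudocount. Within a line genes were counted by a 2-fold rule with no test, because each group held 1 library. limma 3.58.1 (R 4.3.3) with a mean-variance trend was fitted on log2(TPM + 1) with line and transfection as terms, two-sided, with Benjamini-Hochberg adjustment over 19513 genes. Its CRABP1 term was tested on simulated data, in which 200 genes changed alike in both lines. No gene was made to differ between the lines there, so the line term was not tested. Symbols came from a gene name table (58472 identifiers).

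The members and lists were chosen with earlier results of these data known. All mRNAs and rRNAs were named, together with the 3 highest and 3 lowest tRNAs by level, the 3 largest ratios each way per line among tRNAs with at least 20 reads, the 2 largest and 2 smallest mean ratios of each list and its extremes between the lines, and nuclear copies averaging 100 TPM or more. From the lists, part of the genes so chosen are printed. Other tRNAs named are those past a threshold. Tried as alternatives were no filter, a filter at 5 TPM, a pseudocount of 0.1, median-ratio and nuclear scaling, a 1.5-fold threshold, no trend, 1 factor only, each transfection alone, shares of reads and shares without tRNAs. Adding the copies' reads and requiring 20 reads were chosen after seeing the data. Calculations used Python 3.11.15, pandas 2.3.3, NumPy 2.4.6, SciPy 1.17.1 and Biopython 1.88.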

Additional observations from a re-analysis of the deposited data

Results flagged for a closer look

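For 8 genes the CRABP1 to vector ratio lay on opposite sides of 1 in the lines, with both counting intervals off 1. Given as the log2 ratio in 8505C minus that in FTC-133, the difference was -0.87 for MT-RNR1, -0.077 for MT-ND1, 0.18 for MT-CO1, 0.35 for MT-CO2, 0.28 for MT-ATP6, 0.33 for MT-CO3, -2.17 for MT-TR and 0.10 for MT-CYB. With 1 library per group none of these differences was tested. With median-ratio scaling, MT-ND1 in FTC-133 moved from 0.03 to -0.04 and MT-CO3 in 8505C from 0.02 to -0.01, so the opposite directions of these 2 genes depend on the scaling. MT-TR rests on 31 to 104 reads per library. The others had 24428 to 301006, so their counting intervals are narrow and small differences lie off 1. How many of all genes meet the same rule was not counted.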

How the results depend on the processing

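The labels carry no replicate numbers, so no replicate block was fitted; limma already compares the transfections within each line. At 1.5-fold, 7 of 37 mitochondrial genes were called in FTC-133, beside 4526 of 19899 genes compared. In 8505C 11 of 37 were, beside 2638 of 17561, and between the lines 11 of 37, beside 9668 of 19513. With at least 20 reads, 2 of 32 mitochondrial genes remained past 2-fold in FTC-133, beside 761 of 16251 genes. In 8505C 4 of 35 remained, beside 198 of 14568. A mean of 5 TPM gave 591, 218 and 3100 genes past 2-fold in FTC-133, 8505C and between the lines, and no filter gave 2279 in 8505C. From the CRABP1 libraries alone, 9 mitochondrial genes were past 2-fold between the lines, and the number among all genes was not counted for that setting. Without trend, limma called 3 mitochondrial genes between the lines, beside 4589 of 19513 genes tested. With no filter it called 1, beside 1182 of 36025, as more low genes were tested. The single gene it called for CRABP1 was lost, leaving 0, under 1 factor only, no trend, median-ratio scaling, nuclear scaling, no filter and a pseudocount of 0.1. The mitochondrial share without tRNAs was 26.9%, 24.4%, 25.0% and 24.7% of TPM. With all 37 genes it was 7.46%, 6.62%, 6.86% and 6.68% of reads. Medians of the mRNAs changed sign: from 0.02 to -0.01 in 8505C with median-ratio scaling, and between the lines from -0.03 to 0.14 with that scaling and to 0.06 from the CRABP1 libraries alone. Single mRNAs near 0 changed sign too. Depth limits the tRNAs outside the 5 most abundant. Other causes were not tested.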
